A study of Mus musculus with 2 samples.

Results

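The surface colonocytes described here were 706 cell barcodes, 437 from the Butyrate library and 269 from the RA library, out of 20099 barcodes in both. They were chosen by their own UMI counts (unique molecular identifiers, each standing for 1 captured RNA molecule). Barcodes were kept if they held 500 UMIs or more and 250 genes or more, with mitochondrial UMIs making up no more than 25%, which left 15156 barcodes. A member then had at least 1 UMI of Epcam, an epithelial adhesion molecule, at least 1 UMI of the keratin Krt8 and at least 3 UMIs of Aqp8, a water channel of the colonic surface. It had under 10 UMIs of the goblet cell mucin Muc2, under 2 UMIs of the cell division genes Mki67 and Top2a together, at most 1 UMI of the B cell gene Cd79a and 0 UMIs of the T cell gene Cd3e.

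The Butyrate library was made from 1 wild-type mouse fed a diet with 1% butyrate. The RA library was made from 1 wild-type mouse on standard chow, whose group the design text calls CIA, the usual short form of collagen-induced arthritis. Arthritis is not mentioned in the labels of the butyrate-fed mouse, and no age, sex or strain is given. The whole intestine was taken apart into cells, so colon and small intestine share each library, and droplet capture with 3′ end reading was used. With 1 mouse in each group no test between the groups is possible. All ratios below are Butyrate over RA, and their 95% intervals, like those of levels and shares, cover counting error only.

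Colonocytes are born in the crypts, differentiate as they move up, and are shed from the surface between the crypt mouths. At the surface they take up water and salt, use butyrate made by gut bacteria as a main fuel, and keep the bacteria at a distance with secreted and membrane proteins. Interferons switch on antiviral genes in such cells through STAT and IRF transcription factors, and interferon gamma also raises antigen presentation. These are textbook properties and not results of the present data.

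The 2 libraries held 67894477 UMIs in 9959 barcodes (Butyrate) and 61912439 UMIs in 10140 barcodes (RA). Members had a median of 5183 UMIs and 1771 genes in the Butyrate library, against 7058 UMIs and 2072 genes in the RA library, and summed to 3079068 and 2920299 UMIs. Their median mitochondrial share was 20.2% in the Butyrate library and 19.6% in the RA library, close to the limit of 25%. Epithelial cells that met the rule but for under 3 Aqp8 UMIs ("Aqp8-poor" cells) had 9.60% and 8.91%. The rule does not leave enteroendocrine or tuft cells out of this set. B cells (at least 2 Cd79a UMIs, no Epcam) are given below as cells that should lack colonocyte genes. There were 3938 of them with a median of 4527.5 UMIs in the Butyrate library and 2614 with a median of 4136 UMIs in the RA library. The libraries shared 27 barcode sequences, 0 of them among members.

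Some member barcodes also held RNA of other cell types, and unequally. Of 22 markers of B, T, plasma, myeloid, fibroblast and endothelial cells, at least 3 UMIs in sum were found in 29 of 437 members in the Butyrate library, which held 15.0% of the members' UMIs. The same was true of 42 of 269 members in the RA library, with 26.0% of the UMIs. Fibroblast markers (4 genes, all detected) summed to 103 CPM (summed UMIs per 1000000 UMIs of the cells) in the Butyrate members and 633 CPM in the RA members. Plasma cell markers summed to 3149 UMIs in the Butyrate members, of which 3074 lay in 1 barcode, and 77 UMIs in the RA members. Results are therefore given for all members and, where they differ by over 1.5 times or cross a limit, also for the "marker-low" members with under 3 such UMIs. These were 408 cells in the Butyrate library and 227 in the RA library. This second set was chosen after the data had been seen.

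Promoters of interferon-induced genes are shown first, since these genes stood higher in the Butyrate members as a group. For the 5 genes of the type I interferon list with the most UMIs among those with a motif match before the start and a ratio of at least 2, the 250 bases before the start are printed from RefSeq (build GRCm38.p6), 5′ to 3′ on the gene's strand. They lie at chr19:34599428-34599677 (minus strand, Ifit1bl1), chr4:156200819-156201068 (minus, Isg15), chr19:34640639-34640888 (plus, Ifit1), chr12:26456453-26456702 (minus, Rsad2) and chr10:128270248-128270497 (plus, Stat2). Capitals mark matches to GAAANNGAAA, the core of the interferon-stimulated response element, or to TTTCNNTTTC, the same motif on the other strand.
Ifit1bl1: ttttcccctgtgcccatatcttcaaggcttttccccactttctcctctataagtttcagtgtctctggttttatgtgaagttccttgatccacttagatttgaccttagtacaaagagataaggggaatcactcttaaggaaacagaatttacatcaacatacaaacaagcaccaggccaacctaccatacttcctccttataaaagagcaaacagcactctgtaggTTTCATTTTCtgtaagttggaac
Isg15: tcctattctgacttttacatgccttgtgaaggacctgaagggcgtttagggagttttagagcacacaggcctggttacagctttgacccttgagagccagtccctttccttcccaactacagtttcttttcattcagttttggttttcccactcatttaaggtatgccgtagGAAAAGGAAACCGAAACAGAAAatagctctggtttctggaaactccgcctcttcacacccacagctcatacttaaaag
Ifit1: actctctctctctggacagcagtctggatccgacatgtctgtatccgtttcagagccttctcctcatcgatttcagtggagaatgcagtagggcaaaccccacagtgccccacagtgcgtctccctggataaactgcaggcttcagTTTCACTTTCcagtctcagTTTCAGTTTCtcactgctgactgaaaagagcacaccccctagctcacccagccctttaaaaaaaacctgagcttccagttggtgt
Rsad2: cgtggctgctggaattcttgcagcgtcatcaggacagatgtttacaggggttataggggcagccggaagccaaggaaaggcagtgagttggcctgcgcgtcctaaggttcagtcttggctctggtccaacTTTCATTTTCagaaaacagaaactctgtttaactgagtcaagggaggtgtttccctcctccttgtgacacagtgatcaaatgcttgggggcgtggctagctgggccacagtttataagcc
Stat2: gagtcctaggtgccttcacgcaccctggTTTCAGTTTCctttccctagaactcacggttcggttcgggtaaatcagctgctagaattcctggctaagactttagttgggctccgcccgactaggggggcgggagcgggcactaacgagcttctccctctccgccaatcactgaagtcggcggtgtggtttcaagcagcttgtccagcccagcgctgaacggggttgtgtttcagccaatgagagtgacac
The match nearest the start began 23 bases before it in Ifit1bl1, whose table entry has 2 promoters. For a gene with more than 1 promoter the one with the most matches was printed, a choice that favours a match. The stretch printed for Ifit1bl1 lies within the annotated span of the gene, chr19:34592891-34601956. Isg15, a ubiquitin-like antiviral protein, had 3 matches that overlap each other, and Ifit1, which binds foreign RNA, had 2 matches. Both strands were searched over 250 bases before to 50 bases after each start. A gene was counted if any of its promoters held a match. A match was found in 1079 of 27025 genes (3.99%), in 17 of the 30 measured type I interferon list genes with a promoter in the table (56.67%), and in 11 of the 15 such genes with a ratio of at least 2 both in all and in marker-low members (73.33%). In the list of interferon gamma GTPases it was found in 7 of 9 genes (77.78%), in MHC class I in 5 of 20 (25%), and in 0 of 11 immediate early genes. A match says only that these letters are present.

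The label was checked against markers of the cell type. Aqp8 had 2937 CPM in the Butyrate members and 2046 CPM in the RA members (ratio 1.44, 1.39 to 1.48). Phgr1, a small protein of mature gut epithelium, had 16756 CPM and 19214 CPM (0.872, 0.862 to 0.883). Saa1, an acute phase protein also made by colonic epithelium, had 4765 CPM and 5802 CPM (0.821, 0.803 to 0.840). The guanylate cyclase ligand Guca2a had 5631 CPM and 5769 CPM (0.976, 0.956 to 0.997). These 4 markers differed by less than 1.5-fold between the libraries. The fifth, Ifit1bl1, a member of the interferon-induced Ifit family, had 1411 CPM in the Butyrate members and 625 CPM in the RA members (2.26, 2.14 to 2.38). All 5 were at least 2-fold above the Aqp8-poor cells in both libraries, which the rule and the choice of markers favour. In the Butyrate library those folds over Aqp8-poor cells were 205 for Aqp8, 30.9 for Saa1, 9.42 for Ifit1bl1, 6.26 for Phgr1 and 3.97 for Guca2a. In the RA library they were 118 for Aqp8, 24.9 for Saa1, 8.74 for Ifit1bl1, 8.49 for Phgr1 and 5.62 for Guca2a.

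**Figure D1:**
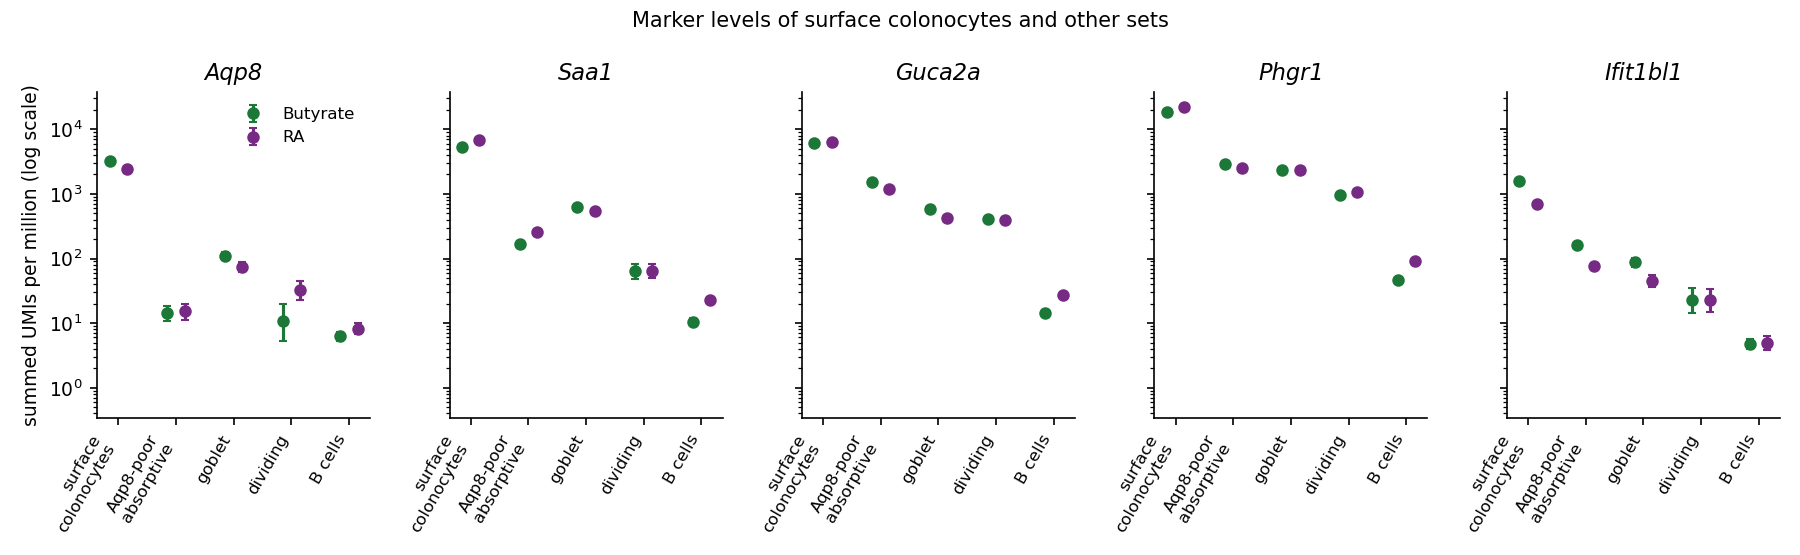
Levels of surface colonocyte markers in surface colonocytes, the other epithelial sets and B cells of the Butyrate and RA libraries (CPM, log axis). Bars give 95% Poisson intervals, and epithelial sets are marker-low cells. Aqp8, Saa1 and Ifit1bl1 stood far above the other sets in surface colonocytes of both libraries.

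Genes of the small intestine, some of them added to the list after the data had been seen, gave a mixed picture. Of 20 small intestine enterocyte genes, 6 were at 0 UMIs in the Butyrate members and 5 in the RA members, among them the sugar-digesting enzymes Sis and Lct and the apolipoproteins Apoa1, Apoa4 and Apoc3. Fabp1, a fatty acid binding protein of the small intestine outside that list, had 0 UMIs in the members of both libraries, against 78 UMIs in Butyrate and 83 UMIs in RA Aqp8-poor cells. Other genes of the list were well detected. Fabp2, another fatty acid binding protein, had 2216 CPM in the Butyrate members and 1512 CPM in the RA members, Clec2h had 1267 CPM and 1076 CPM, and the retinol binding protein gene Rbp2 had 439 UMIs and 344 UMIs. Of the 7 genes that could be compared in marker-low cells, 5 were at least 2-fold above Aqp8-poor cells in both libraries and 1 was at most 0.5. The median log2 ratio of these 7 over Aqp8-poor cells was 2.11 in the Butyrate library and 2.67 in the RA library. The label thus rests on the 5 markers above, and the stretch of gut the members came from was not settled by these genes. The 7 enteroendocrine markers summed to 4 UMIs in the Butyrate members, with 4 genes at 0, and to 6 UMIs in the RA members, with 3 genes at 0.

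Cells just inside and just outside the Aqp8 limit differed in most of these genes. The 16 Butyrate members with 3 Aqp8 UMIs had 1653 CPM of Saa1 and 9408 CPM of Phgr1, against 893 CPM and 5630.0 CPM in the 19 Butyrate cells with 2 Aqp8 UMIs. In the RA library the 15 members with 3 UMIs had 2686 CPM of Saa1 and 13858 CPM of Phgr1, against 1272 CPM and 6719 CPM in the 21 cells with 2 UMIs. Guca2a did not follow this in the Butyrate library, with 3336 CPM inside and 3432 CPM outside the limit. These groups hold few cells and the limit counts raw UMIs, so whether it cuts through a graded series of cells was not tested. Aqp8 classes of 3 to 5, 6 to 10 and over 10 UMIs held 54, 91 and 292 cells in the Butyrate library. They held 42, 43 and 184 cells in the RA library. Lypd8, a secreted protein that keeps bacteria off the epithelium, had 7423 CPM, 9102 CPM and 11475 CPM in the Butyrate classes, and 7491 CPM, 7173 CPM and 10569 CPM in the RA classes. Ifit1bl1 stood higher in the Butyrate than in the RA library within each class, at 1604 CPM against 731 CPM, 1718 CPM against 469 CPM, and 1313 CPM against 643 CPM.

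**Figure D2:**
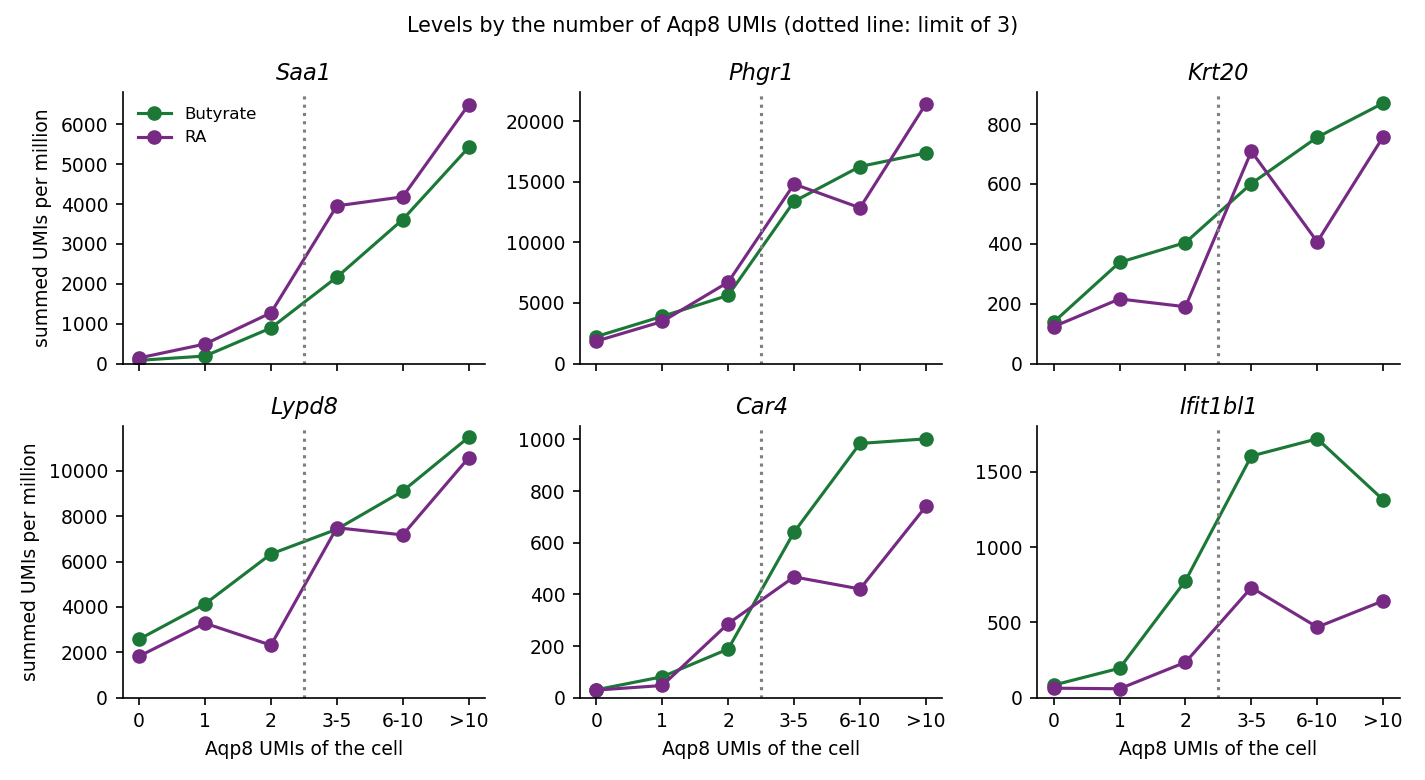
Levels of 6 genes in members and Aqp8-poor cells of the Butyrate and RA libraries, grouped by Aqp8 UMIs. The x axis runs from 0 to over 10 UMIs, and the y axis gives CPM of the summed cells of a class. Saa1, Phgr1 and Lypd8 were higher in the class over 10 UMIs than in cells with 0 Aqp8 UMIs in both libraries, and Ifit1bl1 was higher in Butyrate in each class of members.

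Beyond the markers, 454 of 8007 genes (5.67%) were at least 2-fold higher in surface colonocytes than in Aqp8-poor cells in both libraries, and 1670 (20.9%) were at most 0.5 of the Aqp8-poor level. In marker-low cells the median log2 ratio of all genes was -0.52 in the Butyrate library and -0.47 in the RA library. With the levels of all cells scaled to put their own median at 0 in each library, the counts were 878 higher and 814 lower. Against goblet cells these shares were 12.1% and 20.1% of 6361 genes, and against dividing epithelial cells 12.5% and 18.8% of 5739 genes. Since the same counts chose the cells, this is a description. The 12 genes with the highest ratios over Aqp8-poor cells were of several kinds. Slc15a1, the peptide transporter PepT1, stood 24.5-fold above Aqp8-poor cells in the Butyrate library and 28.6-fold in the RA library. Rbp2 stood 18.5-fold and 20.7-fold higher. Car4, a membrane carbonic anhydrase that works with bicarbonate transport, stood 19.6-fold and 14.9-fold higher. Tgm3, a transglutaminase that cross-links proteins, stood 39.8-fold and 16.3-fold higher, and the phosphate transporter gene Slc34a2 stood 15.0-fold and 17.1-fold higher. Sectm1b, a gene of a secreted and transmembrane protein, stood 14.0-fold and 16.2-fold higher, and Ly6g, best known as a surface marker of neutrophils, stood 13.7-fold and 19.6-fold higher. Saa2, an acute phase gene next to Saa1, had 86 UMIs in the Butyrate members and 51 UMIs in the RA members, and Cyp2d12, a cytochrome P450, had 241 UMIs and 143 UMIs. The 6 genes at the other end included Fabp1, given above. Chgb, a granule protein of enteroendocrine cells, had 1 UMI in the Butyrate members against 231 UMIs in Butyrate Aqp8-poor cells, and 2 UMIs against 962 UMIs in the RA library. Chat, the acetylcholine enzyme of tuft cells, had 0 UMIs against 97 UMIs, and 1 UMI against 124 UMIs. Aqp8-poor cells thus held RNA of enteroendocrine and tuft cells, so folds over them are not only a contrast among colonocytes.

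The lists were compared in marker-low cells. There 22 of 35 type I interferon genes were at least 2-fold above Aqp8-poor cells in both libraries and 0 were at most 0.5. Their median log2 ratio over Aqp8-poor cells was 1.74 in the Butyrate library and 1.40 in the RA library, beside the medians of all genes given above. Of 19 brush border genes, 10 passed the same limit upward. Of 26 water and ion transport genes, 10 were at least 2-fold higher and 6 at most 0.5 of the Aqp8-poor level. Of all genes in all cells, 5.67% were at least 2-fold higher and 20.9% at most 0.5. In marker-low cells these were 484 and 1883 genes. Their share of the genes compared in marker-low cells is not given, so the shares beside these lists are those of all cells. The 6 lower transport genes are not read as a result about the list. All 12 heat shock genes were at most 0.5 of the Aqp8-poor level in both libraries, with medians of -2.98 and -1.85. The same limit upward was passed by 1 of 5 interferon gamma GTPases, with medians of 1.14 in the Butyrate library and 0.22 in the RA library, and 5 of 19 MHC class I genes, with medians of 1.07 and 0.61.

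Surface colonocytes made up 437 of 8247 kept barcodes in the Butyrate library, or 5.30% (4.83 to 5.80%, exact Clopper-Pearson), against 269 of 6909 in the RA library, or 3.89% (3.45 to 4.38%). The ratio of shares was 1.36 (1.17 to 1.59). Among cells with Epcam and Krt8 and without B or T markers, members were 50.8% in the Butyrate library and 36.3% in the RA library (1.40, 1.20 to 1.63). This order hung on the mitochondrial limit. With a limit of 10%, 24 Butyrate cells and 25 RA cells remained and the ratio of shares was 0.795 (0.435 to 1.45). With no limit there were 1333 Butyrate cells and 1231 RA cells, and the ratio was 0.983 (0.909 to 1.06). The limit of 25% removed 15.4% of Butyrate barcodes and 30.0% of RA barcodes, so the shares above are of the cells that passed it.

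Between the libraries, 152 of 7804 genes with at least 50 UMIs (1.95%) had a ratio of at least 2 in the members, and 327 (4.19%) had a ratio of at most 0.5. In the marker-low members these were 125 of 6673 genes (1.87%) and 182 (2.73%). The median log2 ratio of all genes was -0.02 in all members. Of all genes 48.6% had a log2 ratio above 0 and 51.4% below 0, and in the marker-low members these shares were 50% and 50%. The 12 lowest genes of all members were mostly genes of connective tissue, such as the matrix protein gene Mgp with 0 UMIs in the Butyrate members and 128 UMIs in the RA members. Dcn, the collagen-binding proteoglycan decorin, had 39.9 CPM and 321 CPM in all members, but 0.764 CPM and 4.63 CPM in the marker-low members. The lower genes of all members are therefore not read as genes of colonocytes without the marker-low value.

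**Figure D3:**
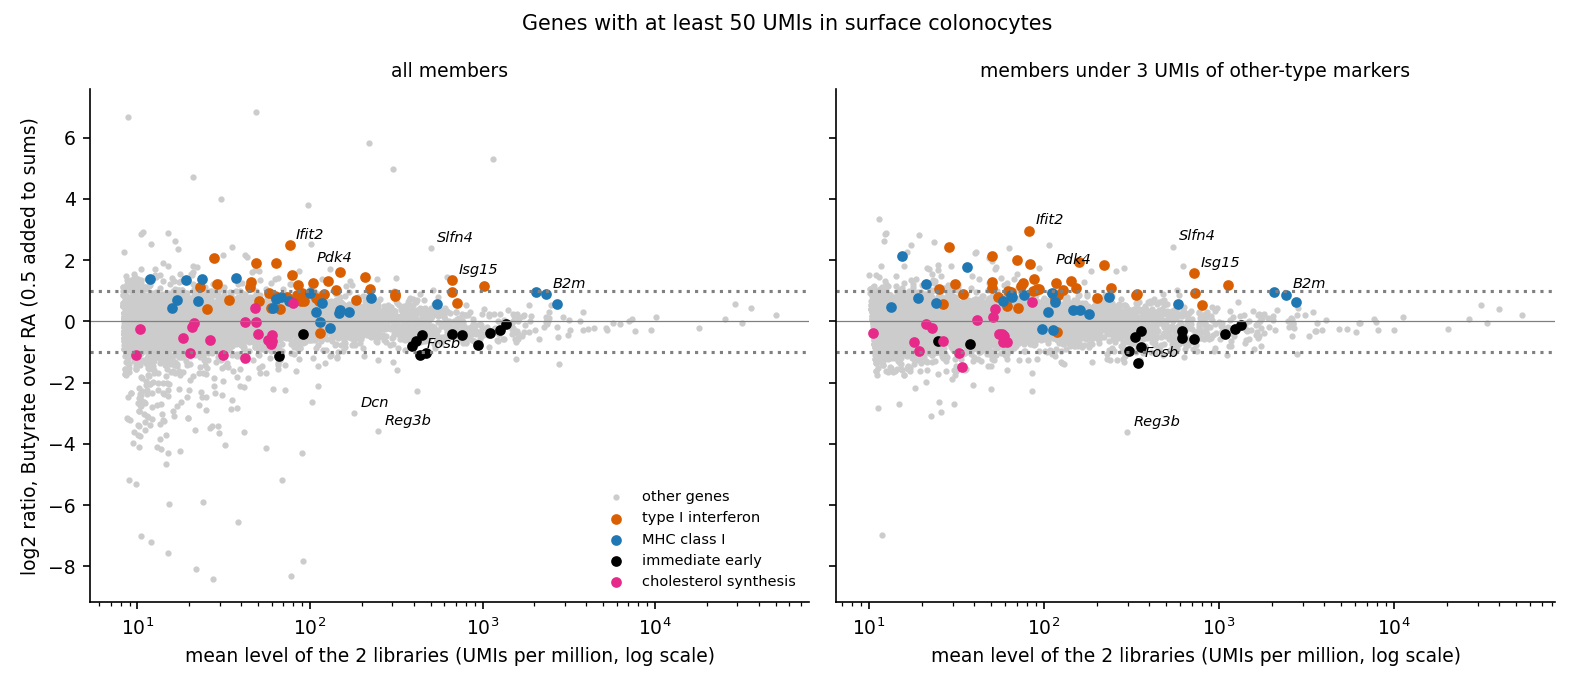
Log2 ratio of Butyrate over RA (y axis) against the mean level of both libraries (x axis, CPM, log scale) for genes with at least 50 UMIs in surface colonocytes, in all members (left) and in marker-low members (right); dotted lines mark 2-fold. Genes of the type I interferon list lie above 0 but for 1, and Dcn is among the low genes on the left.

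Type I interferon genes stood higher in the Butyrate members as a group. Of the 40 measured genes of the list, 39 were higher and 1 lower, and 18 had a ratio of at least 2 and 0 a ratio of at most 0.5. Their median log2 ratio was 0.94, beside -0.02 for all genes, and 26 had a ratio of at least 2 in the marker-low members, with a median of 1.07. The list summed to 8902 CPM in the Butyrate members and 4467 CPM in the RA members. These genes were among those already known to differ when the list was chosen, so the count is not independent evidence.

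Slfn4, a Schlafen family gene induced by interferon (chr11:83175186-83190216, plus strand, GRCm38), had 842 CPM in the Butyrate members and 159.9 CPM in the RA members (5.27, 4.77 to 5.83). UMIs of it were found in 60.6% of Butyrate members and 39.0% of RA members, against 1.73% and 0.765% of B cells. Counted as a mean over members, the ratio was 3.51. Ifit2, an RNA-binding antiviral protein gene (chr19:34550694-34576419), had 129.6 CPM and 22.9 CPM (5.65, 4.35 to 7.43), against 1.79 CPM and 2.13 CPM in the B cells of the Butyrate and RA libraries. Without a mitochondrial limit its ratio was 3.67. Both genes thus stood well above the level in B cells in both libraries.

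Isg15 (chr4:156199424-156200818) had 958 CPM in the Butyrate members and 377 CPM in the RA members (2.54, 2.37 to 2.72), with UMIs in 76.4% and 63.9% of members, against 4.49% and 4.59% of B cells. In the 24 and 25 cells left by a mitochondrial limit of 10% its ratio was 1.16. Ifit1 had 307 CPM and 113 CPM (2.72, 2.40 to 3.09). Rsad2, which encodes the antiviral enzyme viperin, had 225 CPM and 73.6 CPM (3.05, 2.62 to 3.57). The Rsad2 ratio was smaller as a mean over members, at 1.80, and in members thinned to 2000 UMIs, at 1.66. These genes have the motif in the promoters printed above. Usp18, which removes Isg15 from proteins and damps the receptor, had 77.0 CPM in the Butyrate members and 20.5 CPM in the RA members (3.75, 2.81 to 5.06). Oas2, a sensor of double-stranded RNA, had 308 UMIs and 78 UMIs (3.75, 2.91 to 4.87). Cmpk2, a mitochondrial nucleotide kinase next to Rsad2, had 45.1 CPM and 10.6 CPM (4.25, 2.86 to 6.50), and 2.37 as a ratio of means over members. Trim30c, a Trim30 family gene, had 63 UMIs in the Butyrate members and 10 UMIs in the RA members (5.98, 3.04 to 13.1).

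Other genes of the list had smaller ratios. Ddx60, a helicase that aids RNA sensing, had 878 CPM in the Butyrate members and 450.0 CPM in the RA members (1.95, 1.83 to 2.08). Ifi27l2b had 860.0 CPM and 565 CPM (1.52, 1.43 to 1.62). Ifi27, the lower gene of the list, had 99.7 CPM and 129 CPM (0.774, 0.664 to 0.903). Dhx58, a regulator of RNA sensing, had 28.9 CPM and 21.9 CPM (1.32), with an interval from 0.946 to 1.85 that includes 1. The transcription factors of the pathway were chosen after their values were seen, apart from Stat2. Stat2 had 118 CPM in the Butyrate members and 51.4 CPM in the RA members (2.30, 1.90 to 2.80), and Irf7 had 399 CPM and 226 CPM (1.76, 1.60 to 1.94). The Ifit family holds near-identical copies, so reads of Ifit1bl1 may be split with Ifit1bl2.

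Receptors and kinases of the interferon pathway differed less. Of 13 measured genes 11 were higher and 2 lower, with a median log2 ratio of 0.17 and 0 genes at a ratio of at least 2. Ifngr1, a chain of the interferon gamma receptor, had 296 CPM in the Butyrate members and 318 CPM in the RA members (0.929, 0.847 to 1.02). Irf1, a transcription factor induced by interferon gamma, had 253 CPM and 174 CPM (1.45, 1.30 to 1.63). Socs3, an inhibitor of cytokine signalling that interleukins also induce, had 14.6 CPM and 64.0 CPM (0.228, 0.161 to 0.317), and 2.67 CPM and 19.9 CPM in the marker-low members (0.134, 0.0510 to 0.301). Its share of cells was 3.66% in the Butyrate members and 16.0% in the RA members, against 14.6% and 11.3% of B cells. Which cells the Socs3 UMIs of the members came from was not tested, and the Butyrate share is not read as expression.

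The GTPases and other targets of interferon gamma were higher in 10 of 10 measured genes, 5 of them with a ratio of at least 2, and their median log2 ratio was 1.01. In the marker-low members 9 of 9 had a ratio of at least 2 and the median was 1.54. Irgm2, a regulator of the GTPases that attack vacuoles of microbes, had 95.2 CPM in the Butyrate members and 35.6 CPM in the RA members (2.67, 2.13 to 3.38). Ifi47, a GTPase of the same family, had 69.5 CPM and 22.6 CPM (3.08, 2.32 to 4.12), and Irgm1 had 231 UMIs and 105 UMIs (2.09, 1.65 to 2.65). Iigp1 depended on the cells taken: 76.6 CPM and 49.3 CPM in all members (1.55, 1.26 to 1.93), 79.8 CPM and 20.4 CPM in the marker-low members (3.92, 2.82 to 5.56), and a ratio of 0.425 with the mitochondrial limit of 10%. Gbp2 likewise had a ratio of 1.29 (0.849 to 1.97) in all members and 3.60 (1.85 to 7.69) in the marker-low members. Cd274, the immune checkpoint ligand PD-L1, had 69.2 CPM in the Butyrate members and 15.1 CPM in the RA members (4.59, 3.31 to 6.51). Its UMIs were in 20.6% of Butyrate members and 9.67% of RA members, against 19.6% and 18.6% of B cells. B cells are known to express Cd274, so their share gives no background level for it. In the marker-low members Cd274 had 66.5 CPM in the Butyrate library and 13.9 CPM in the RA library, against 64.3 CPM and 71.1 CPM in B cells. Which cells these UMIs came from was not tested. Ubd, a ubiquitin-like protein induced by inflammatory cytokines, had 51.3 CPM and 11.3 CPM (4.54, 3.10 to 6.82), with 39.4% of its RA UMIs in 1 cell.

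MHC class I genes, which carry peptides to the cell surface for T cells, were higher in 22 of 24 measured genes, with 4 at a ratio of at least 2 and a median log2 ratio of 0.67. The heavy chain gene H2-K1 (chr17:33996017-34000347) had 2674 CPM in the Butyrate members and 1386 CPM in the RA members (1.93). B2m, the shared light chain (chr2:122147686-122153083), had 3020.4 CPM and 1639 CPM (1.84, 1.78 to 1.91), and H2-D1 had 3237 CPM and 2159 CPM (1.50, 1.45 to 1.55). Over the alternatives run, the H2-K1 ratio lay between 1.79 and 2.09 and the B2m ratio between 1.68 and 2.01. Nlrc5, the transcription activator of these genes, had 54.2 CPM and 20.2 CPM (2.68, 1.98 to 3.68). The 2 lower genes were chaperones of peptide loading. Calr had 114 CPM in the Butyrate members and 115 CPM in the RA members (0.997, 0.856 to 1.16), and Pdia3 had 121 CPM and 139 CPM (0.872, 0.755 to 1.01). Several H2 genes are near-identical, H2-Q6 among them, and their reads may be split.

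All 5 measured MHC class II genes were higher in the Butyrate members, 4 of them with a ratio of at least 2. Cd74, the invariant chain, had 458 CPM in the Butyrate members and 171 CPM in the RA members (2.68, 2.42 to 2.97), and 281 CPM and 88.8 CPM in the marker-low members (3.16, 2.69 to 3.73). H2-Aa had 199 CPM and 60.6 CPM (3.28, 2.77 to 3.90), and 5.36 (3.88 to 7.57) in the marker-low members. B cells held far more of both, at 6515 CPM and 6921 CPM of Cd74. The 4 B cell markers, all detected, summed to 18.5 CPM in the Butyrate members and 6.85 CPM in the RA members, and to 4.20 CPM and 1.85 CPM in the marker-low members. Their part in the class II result was not tested.

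**Figure D4:**
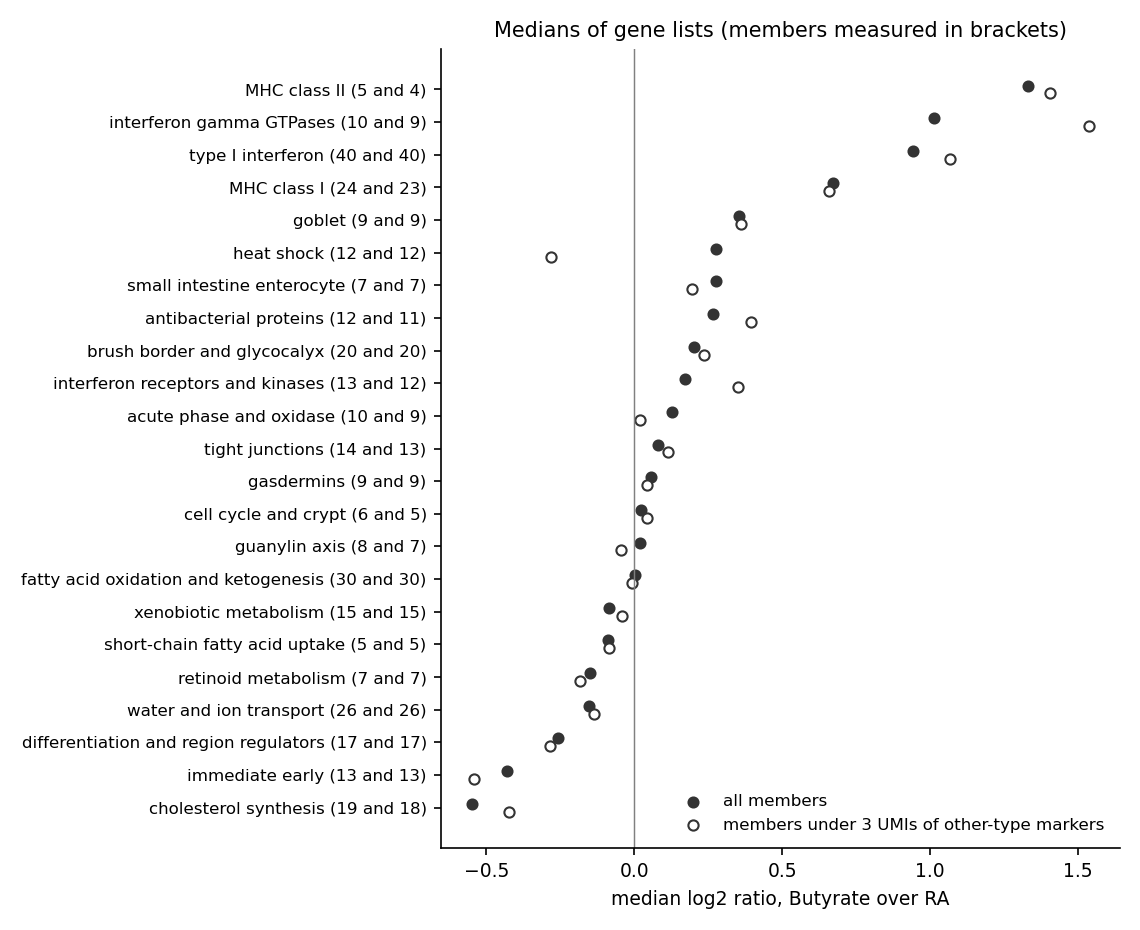
Median log2 ratio of Butyrate over RA for 23 gene lists in surface colonocytes (x axis), in all members (filled points) and marker-low members (open points). The type I interferon, GTPase and MHC lists lie between 0.66 and 1.54, the cholesterol and immediate early lists below 0, and the heat shock list at 0.28 and -0.28.

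Genes for fuel use were mixed. Of 30 measured genes of fatty acid oxidation and ketogenesis, 15 were higher and 15 lower, and the median log2 ratio was 0.00. Pdk4 (chr6:5483351-5496309, minus strand), which blocks pyruvate dehydrogenase when fat is burned, had 172 CPM in the Butyrate members and 29.4 CPM in the RA members (5.86, 4.66 to 7.44). Its UMIs were found in 43.9% of Butyrate members and 18.2% of RA members, against 0.178% and 0.497% of B cells. With no mitochondrial limit its ratio was 3.06, and with a limit of 10% it was 26.2. Creb3l3, a transcription factor of fasting and lipid metabolism, had 59 UMIs in the Butyrate members and 7 UMIs in the RA members (7.99, 3.65 to 20.7), but a ratio of 0.736 with the limit of 10%. These 2 genes were the only ones of the list with a ratio of at least 2 in all members.

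Enzymes of fat oxidation were closer to 1 or lower. The carnitine carrier gene Slc25a20 had 224 CPM in the Butyrate members and 171 CPM in the RA members (1.31, 1.17 to 1.47). Acat1, a mitochondrial thiolase, had 24.4 CPM in the Butyrate members and 51.4 CPM in the RA members (0.474, 0.355 to 0.630). Echs1, a hydratase of the same pathway, had 48.4 CPM and 77.7 CPM (0.623, 0.503 to 0.769). Pccb, a subunit of propionyl-CoA carboxylase, was among the 12 lowest marker-low genes, at 6.49 CPM and 30.1 CPM (0.216, 0.119 to 0.373).

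Carriers of short-chain fatty acids lay within 1.5-fold. Of 5 measured genes 2 were higher and 3 lower. Slc16a1, the monocarboxylate transporter MCT1 that takes up butyrate, had 189 CPM in the Butyrate members and 218 CPM in the RA members (0.866, 0.773 to 0.971). Its partner gene Bsg had 470.3 CPM and 527 CPM (0.892, 0.829 to 0.959). Slc5a8, a sodium-coupled carrier of butyrate, had 117 CPM and 124 CPM (0.941, 0.811 to 1.09), and the efflux pump gene Abcg2 had 269 CPM and 208 CPM (1.29, 1.16 to 1.44).

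Cholesterol synthesis genes were lower in 17 of 19 measured genes, with a median log2 ratio of -0.55 and 4 at a ratio of at most 0.5. In the marker-low members 14 of 18 were lower, 2 of them at a ratio of at most 0.5, and the median was -0.42. Hmgcs1, an early enzyme of the pathway, had 44.5 CPM in the Butyrate members and 74.6 CPM in the RA members (0.596, 0.478 to 0.741), but a ratio of 1.20 in members thinned to 2000 UMIs each. The 2 higher genes were Insig1, which holds the pathway's regulator back, with 95.5 CPM and 63.3 CPM (1.51, 1.25 to 1.82), and Sc5d, a late enzyme, with 55.2 CPM and 40.7 CPM (1.35, 1.07 to 1.73).

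Water and ion transport genes had no common direction, with 11 of 26 higher and 15 lower and 2 at a ratio of at most 0.5. Atp1b1, the beta chain of the sodium pump, had 946 CPM in the Butyrate members and 1016 CPM in the RA members (0.931, 0.885 to 0.981). Slc9a3, the sodium-hydrogen exchanger NHE3 of the surface, had 270.2 CPM and 399 CPM (0.677, 0.619 to 0.741). Nr3c2, the aldosterone receptor, had 1362 CPM and 1315 CPM (1.04, 0.991 to 1.08). These genes were thus level or lower in the Butyrate members, and the Atp1b1 ratio lay between 0.803 and 1.03 over the alternatives run.

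Car4 had 958 CPM in the Butyrate members and 655 CPM in the RA members (1.46, 1.38 to 1.55). Clca4a, a gene of the calcium-activated chloride channel regulators, had 567 CPM and 305 CPM (1.86, 1.71 to 2.02), and a ratio of 0.874 with the mitochondrial limit of 10%. Its near copy Clca4b had 18 UMIs and 116 UMIs (0.147, 0.0843 to 0.243), and reads of the pair may be split. Aqp4, a basolateral water channel, had 129 CPM and 281 CPM (0.460, 0.407 to 0.520), in 5.49% of Butyrate members and 17.1% of RA members, against 0.635% and 0.497% of B cells. Slc34a2 had 76.3 CPM in the Butyrate members and 24.3 CPM in the RA members (3.14, 2.40 to 4.15), and S100g, a calcium-binding protein of absorptive cells, had 88 UMIs and 13 UMIs (6.42, 3.57 to 12.5). Slc26a3, the chloride-bicarbonate exchanger, chosen after its value was seen, had 881 CPM and 964 CPM (0.914, 0.867 to 0.964). The guanylin genes were level or slightly apart, Guca2b having 113 CPM and 90.7 CPM (1.25, 1.06 to 1.47). As a mean over members the Guca2b ratio was 1.08. In marker-low members thinned to 2000 UMIs, Guca2b had a UMI in 7.84% of Butyrate cells and 15.9% of RA cells. There 10 cells held 72.9% of its UMIs in the Butyrate library and 52.8% in the RA library.

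Antibacterial genes went both ways. Lypd8 had 10637 CPM in the Butyrate members and 9632 CPM in the RA members (1.10, 1.09 to 1.12). Pglyrp1, which binds bacterial wall fragments, had 577 CPM and 449 CPM (1.29, 1.20 to 1.38). Defb1, an epithelial defensin, had 184 UMIs and 32 UMIs (5.45, 3.73 to 8.21), and a ratio of 2.40 with no mitochondrial limit. The lectin gene Reg3b (chr6:78370657-78373466) had 118 UMIs in the Butyrate members, 54.2% of them in 1 cell, and 1340 UMIs in the RA members, 35.1% of them in 1 cell. Reg3b UMIs were found in 3.43% of Butyrate members and 9.67% of RA members, against 0.0508% and 3.86% of B cells. In the marker-low members Reg3b had 45.1 CPM in the Butyrate library and 549.5 CPM in the RA library, and in the Aqp8-poor marker-low cells it had 38.1 CPM in the Butyrate library and 2177 CPM in the RA library. Retnlb, a goblet cell protein, had 30.9 CPM and 10.6 CPM (2.91, 1.92 to 4.51), but its share of members, 17.8% and 8.92%, was no higher than in B cells, 17.9% and 9.56%, and is read as background.

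The oxidase pair that makes hydrogen peroxide at the surface was higher in the Butyrate members. Duox2 had 262 CPM in the Butyrate members and 146 CPM in the RA members (1.79, 1.59 to 2.02). Its maturation factor gene Duoxa2 had 140.3 CPM and 69.9 CPM (2.01, 1.70 to 2.38), and a ratio of 1.84 (1.54 to 2.21) in the marker-low members. With no mitochondrial limit the ratios were smaller, at 1.23 for Duox2 and 1.30 for Duoxa2. Pigr, which carries IgA through the cell, had 1065 CPM and 1415 CPM (0.753, 0.719 to 0.788). This lower value hung on the processing. The Pigr ratio was 1.03 as a mean over members, 0.984 in members thinned to 2000 UMIs and 1.05 with no mitochondrial limit. Saa3 had 72 UMIs and 27 UMIs, with 52.8% of the Butyrate UMIs in 1 cell, and a ratio of 1.02 (0.587 to 1.78) in the marker-low members. In the inflammasome and gasdermin list 5 of 9 genes were higher. Casp4, the sensor of bacterial lipopolysaccharide, had 202 CPM in the Butyrate members and 144 CPM in the RA members (1.41, 1.24 to 1.60). Il18, a cytokine matured by caspase-1, had 142 CPM and 262 CPM (0.544, 0.482 to 0.612). The pore protein gene Gsdmc4 had 88.0 CPM and 201 CPM (0.439, 0.378 to 0.507), with family members whose reads it may share, and a ratio of 0.922 with at least 2 Aqp8 UMIs in place of 3.

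Brush border genes were higher in 16 of 20 measured genes, but with a median log2 ratio of only 0.20 and 1 gene at a ratio of at least 2. That gene was the membrane mucin gene Muc4, with 43 UMIs in the Butyrate members and 16 UMIs in the RA members (2.55, 1.41 to 4.85). In the marker-low members its ratio was 1.93 (1.02 to 3.80), so that 0 genes of the list passed, and with no mitochondrial limit it was 1.63. Muc13, another membrane mucin, had 1882 CPM and 1608 CPM (1.17, 1.13 to 1.22). Mep1b, a brush border protease, had 384 CPM and 244 CPM (1.57, 1.43 to 1.73), and Ezr, which anchors microvilli, had 631 CPM and 807 CPM (0.782, 0.736 to 0.831). Tight junction genes were close to 1. Cldn3 had 1825 CPM in the Butyrate members and 1614 CPM in the RA members (1.13, 1.09 to 1.18), Cldn7 had 1685 CPM and 1561 CPM (1.08, 1.04 to 1.12), and Cgn, the scaffold cingulin, had 215 CPM and 152 CPM (1.41, 1.25 to 1.59). None of 14 measured junction genes passed 2-fold in either direction.

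Regulators and keratins were lower in 13 of 17 measured genes, with a median log2 ratio of -0.26. Krt20, the keratin of mature surface cells, had 821 CPM in the Butyrate members and 694 CPM in the RA members (1.18, 1.12 to 1.26). Krt19, a keratin found along the whole crypt, had 1067 CPM and 1586 CPM (0.672, 0.643 to 0.703). Klf4, a factor of differentiation, had 717 CPM and 912 CPM (0.787, 0.743 to 0.833). The higher regulator past 2-fold was Prdm1, which encodes Blimp-1, with 33.8 CPM and 12.7 CPM (2.67, 1.82 to 3.99). The inhibitor of differentiation gene Id3 had 68.2 CPM in the Butyrate members and 175 CPM in the RA members (0.389, 0.330 to 0.458), and 0.510 in the marker-low members. Hes1, a Notch target, had 39.6 CPM and 94.9 CPM (0.418, 0.335 to 0.519), and 0.709 in the marker-low members, with 39.4% of the RA UMIs in 1 cell of all members.

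Immediate early genes, which respond within minutes to growth signals and also to tissue dissociation, were lower in 13 of 13 measured genes, 3 of them at a ratio of at most 0.5 in all members and 1 in the marker-low members. The median log2 ratio was -0.43 in all members and -0.54 in the marker-low members. Fosb had 279 CPM in the Butyrate members and 593 CPM in the RA members (0.471, 0.433 to 0.511). Fos had 697 CPM and 1198 CPM (0.582, 0.551 to 0.614), and Jun had 1155 CPM and 1387 CPM (0.833, 0.796 to 0.872). Jund had 1325 CPM and 1399.9 CPM (0.947, 0.906 to 0.989). The family members thus shared a direction and differed in size.

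Heat shock genes depended on which members were taken. In all members 9 of 12 were higher, 4 of them with a ratio of at least 2, at a median of 0.28 on the log2 scale, and in the marker-low members 10 of 12 were lower and 1 had a ratio of at least 2, with a median of -0.28. Hspa1a, the inducible HSP70 chaperone, had 629.7 CPM in the Butyrate members and 639.7 CPM in the RA members, with 31.1% of the Butyrate UMIs in 1 cell, and 343 CPM and 499 CPM in the marker-low members (0.686, 0.628 to 0.751). Hsph1, a partner of it, had a ratio of 2.32 (1.89 to 2.86) in all members and 0.996 (0.713 to 1.39) in the marker-low members. Hspa1a and Hspa1b are near-identical, and reads may be split between them. Immediate early and heat shock levels depend on how tissue is handled, and handling and group cannot be told apart here.

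The genes lower in the Butyrate members were largely genes that stood lower in surface colonocytes than in Aqp8-poor cells. Of the 182 genes with a ratio of at most 0.5 in the marker-low members, 172 could also be compared between surface and Aqp8-poor cells of the RA library. Among them 109 (63.4%) were at most 0.5 of the Aqp8-poor level there and 5 (2.91%) were at least 2-fold above it, beside 18.2% and 9.82% of all 6374 genes compared. Of 97 genes with a ratio of at least 2 that could be compared, 16 (16.5%) were at most 0.5 and 32 (33.0%) at least 2-fold. Both comparisons contain the RA surface sums, so they are not independent. As an example, Acat1 in all RA cells had 0.451 of the Aqp8-poor level and Fosb had 0.582. Slfn4 in contrast had 3.67 and Ifit1bl1 had 8.74.

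The Butyrate to RA ratios of surface colonocytes were next set beside those of other cells, all marker-low apart from B cells. For Slfn4 the ratio was 5.46 in surface colonocytes, 1.58 in Aqp8-poor cells, 3.06 in goblet cells, 3.46 in dividing cells (23 UMIs and 8 UMIs) and 1.85 in B cells. For Usp18 it was 4.42 in surface colonocytes, 1.79 in Aqp8-poor cells, 2.07 in goblet cells, 1.34 in dividing cells (10 UMIs and 9 UMIs) and 0.989 in B cells. For Ifit2 the values were 7.89 in surface colonocytes, 1.37 in Aqp8-poor cells, 1.59 in goblet cells (9 UMIs and 6 UMIs) and 0.837 in B cells. In dividing cells Ifit2 had 10 UMIs in the Butyrate library and 1 UMI in the RA library, a ratio with an interval from 1.71 to 522. For Pdk4 they were 5.71 in surface colonocytes, 2.24 in Aqp8-poor cells, 2.76 in goblet cells and 4.74 in dividing cells (75 UMIs and 19 UMIs, 2.84 to 8.32). In B cells Pdk4 went the other way, with 7 UMIs in the Butyrate library and 44 UMIs in the RA library (0.091, 0.0346 to 0.204). These 4 genes are among the 12 with the highest ratios in surface colonocytes, a choice that favours a high ratio there. Other genes had a higher ratio elsewhere. Ifit1 had 3.62 in surface colonocytes and 7.82 in goblet cells (125 UMIs and 17 UMIs), and Ubd had 3.54 in surface colonocytes and 5.36 in Aqp8-poor cells (31 UMIs and 5 UMIs). Defb1 had 4.87 in surface colonocytes and 6.92 in Aqp8-poor cells (16 UMIs and 2 UMIs, 1.63 to 62.0), and Slc34a2 had 3.45 in surface colonocytes and 4.32 in Aqp8-poor cells (20 UMIs and 4 UMIs). Of the MHC class I genes, H2-K1 had a ratio of 1.96 in surface colonocytes, 1.99 in Aqp8-poor cells, 2.36 in goblet cells, 1.46 in dividing cells and 1.24 in B cells. B2m had 1.83 in surface colonocytes, 1.78 in Aqp8-poor cells, 2.45 in goblet cells, 1.40 in dividing cells and 1.22 in B cells. Ifit1bl1 had 2.27 in surface colonocytes, 2.14 in Aqp8-poor cells and 1.96 in goblet cells, while its level was 1562 CPM, 161 CPM and 87.9 CPM in these Butyrate sets. In dividing cells the Ifit1bl1 ratio was 1.01 (21 UMIs and 25 UMIs), and in B cells it was 0.967. Whether ratios differ between sets was not tested, as each rests on the same 2 mice.

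Cells of a library varied widely. With each marker-low member thinned to 2000 UMIs, 408 Butyrate cells and 220 RA cells remained, 0 and 7 having been too shallow. The type I interferon list had 0 UMIs in the lowest, 16 in the median and 94 in the highest Butyrate cell, and 0, 10 and 61 in the RA cells. B cells had a mean of 1.29 UMIs and 1.14 UMIs of the list. MHC class I had 2, 23 and 79 UMIs in Butyrate cells and 2, 14 and 57 UMIs in RA cells. The ranges overlapped over most of their length and the Butyrate median was higher for both lists. Saa1 had 0, 9 and 51 UMIs in Butyrate cells and 0, 14 and 82 UMIs in RA cells. Slfn4 had a UMI in 48.5% of Butyrate cells and 17.7% of RA cells, against 0.686% and 0.502% of thinned B cells. Pdk4 had a UMI in 25% and 6.36% of cells, against 0.0254% and 0.193% of thinned B cells. Cells without a Slfn4 UMI at this depth may still express it.

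**Figure D5:**
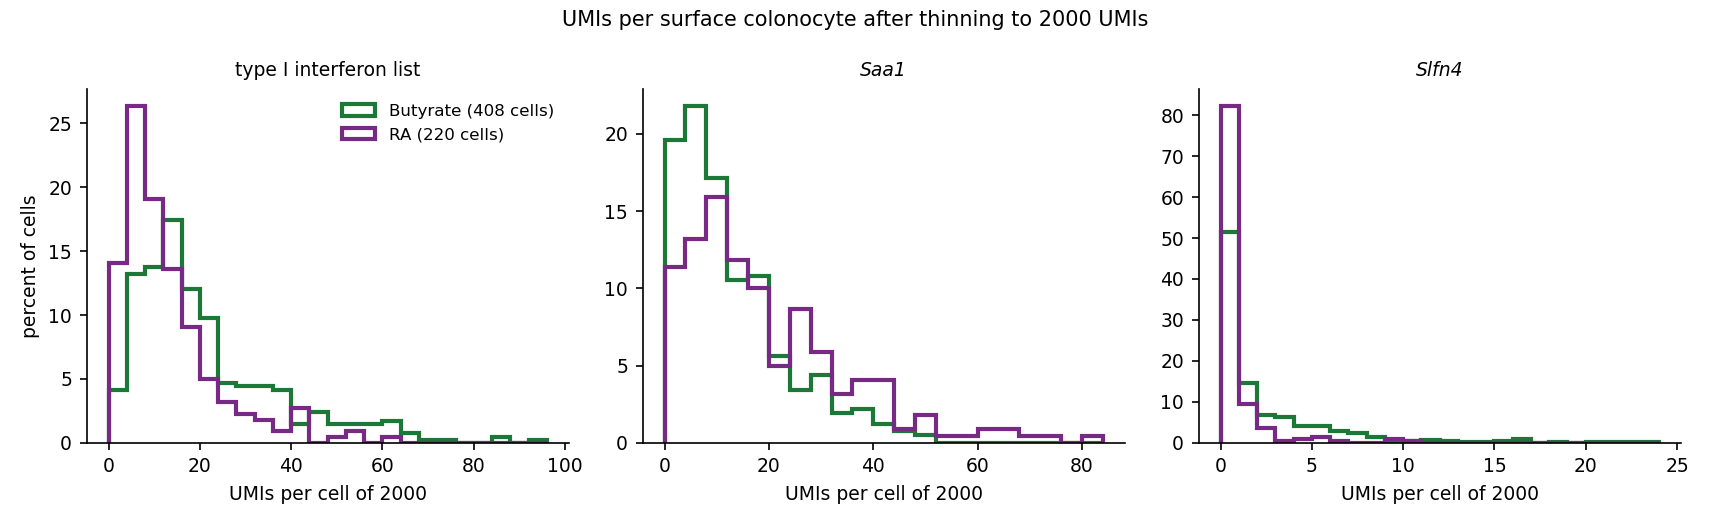
Histograms of UMIs per cell for the type I interferon list, Saa1 and Slfn4 in marker-low surface colonocytes thinned to 2000 UMIs (x axis, UMIs; y axis, share of cells; 408 Butyrate and 220 RA cells). The type I list has its median at 16 UMIs in Butyrate and 10 in RA cells, Saa1 at 9 and 14, and the libraries overlap in all panels.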

How the data were processed

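Per the labels, single cells of mouse intestine were captured and 3′ libraries prepared with a droplet kit, 1 library for each of the Butyrate and RA groups. The deposited values are UMI counts per gene and barcode, not normalized; per the submitters' processing notes Cell Ranger 6.0.1 and build mm10 were used, and Seurat in its versions 4.0.3 and 4.0.4, while the matrix header names Cell Ranger 7.1.0. How the authors filtered barcodes is not given in the sources used here. The lowest barcode had 2313 UMIs in the Butyrate library and 501 in the RA library.

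From these counts members were chosen by the rule given in the report, and their UMIs were summed per library and divided by the summed total (CPM). Levels have exact Poisson intervals, ratios exact conditional binomial intervals and shares Clopper-Pearson intervals, all at 95%. Ratios were read for genes with at least 50 UMIs over both libraries, and log2 ratios add 0.5 to each sum; past 2-fold means a ratio of at least 2 or at most 0.5. No test, p-value or replicate error exists with 1 library per group. Aqp8-poor cells meet the rule except for under 3 Aqp8 UMIs; goblet cells have at least 10 Muc2 UMIs; dividing cells have at least 2 UMIs of Mki67 and Top2a. Doublets were not removed beyond the rule; Scrublet's own threshold called 2 and 0 barcodes, so an alternative removed the 544 and 382 highest scores.

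Genes were named by rule: for Butyrate over RA the 12 highest and 12 lowest ratios with UMIs in at least 10 cells of the higher library, no cell over 25% of its UMIs and a level no less than 0.2 of that in B cells in at least 1 library; the 12 highest and 6 lowest over Aqp8-poor cells; and for each list up to 4 genes with the most UMIs and 2 at each end. Some genes that the rule picks are not reported here. The members and lists were chosen with earlier results of these data known. Of 450 list genes 447 were in the feature table. Of 31253 identifiers 31107 matched GENCODE M21 on GRCm38, the source of gene coordinates. The ratio code was run on sums simulated with counting error only. Differences between cells, mice or libraries were not simulated, so this run says nothing about them. Software was Python 3.11.15, numpy 2.4.6, scipy 1.17.1, pandas 2.3.3, scanpy 1.11.5 and matplotlib 3.10.9.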

Additional observations from a re-analysis of the deposited data

How the results depend on the processing

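No paired analysis was possible because each group has 1 library. Of 16 alternatives 15 were planned; leaving out marker-rich members was added after the data had been seen. Of 108 genes checked 82 kept their side of 1 under all 16, and 10 of 23 list medians their side of 0. The ratio of shares was 0.795 with a mitochondrial limit of 10% and 0.983 with no limit; the cause was not tested. For Butyrate over RA, genes at a ratio of at most 0.5 numbered 104 (limit of 10%), 216 (Aqp8 per 10000 UMIs), 188 (doublet scores), 182 (marker-low), 68 (thinned), 769 (minimum of 20 UMIs) and 68 (minimum of 200), beside 327. Those at a ratio of at least 2 numbered 79 (thinned), 341 (minimum of 20) and 54 (minimum of 200), beside 152; thinning and minimums alter which genes are counted. Over Aqp8-poor cells, the higher genes numbered 136 (limit of 10%), 878 (median-ratio scaling) and 288 (minimum of 200), beside 454, and the lower ones 361, 814 and 622, beside 1670.

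The other 13 list medians changed sign under at least 1 alternative. The values farthest on the other side were acute phase and oxidase -0.33, goblet -0.094, retinoid 0.054 and xenobiotic 0.084 (no limit), gasdermins -0.28, tight junctions -0.22 and brush border -0.091 (limit of 10%), cell cycle -0.34 (mean over members), short-chain fatty acid uptake 0.15 (without members with Ptprc, Cd79b or Cd3g), and guanylin -0.045 and fatty acid oxidation -0.0079 (marker-low). The rest were antibacterial -0.25 (thinned) and -0.049 (minimum of 200), and heat shock -0.14 (Aqp8 per 10000), -0.28 (marker-low) and -0.077 (without the member with most UMIs of each gene). Creb3l3 had 0.736 (limit of 10%) and Hsph1 0.996 (marker-low). The type I interferon median ranged from 0.49 to 1.07, MHC class I from 0.44 to 0.71, cholesterol synthesis from -0.63 to -0.23 and immediate early genes from -0.70 to -0.16. Depth limits genes with few UMIs: a gene at 7 UMIs in a library cannot carry a firm ratio. With 1 mouse per group, mouse, diet, arthritis, handling and library cannot be told apart.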

Other observations

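Genes that handle foreign compounds and retinoids gave no common direction. Of 15 measured xenobiotic genes 7 were higher and 8 lower in the Butyrate members, with a median log2 ratio of -0.09. Cyp2c55, a cytochrome P450 of the colon, had 1617 CPM in the Butyrate members and 1369 CPM in the RA members (1.18, 1.13 to 1.23). The glutathione transferase gene Gstm1 had 15.9 CPM and 46.2 CPM (0.344, 0.243 to 0.481), and Gsta4 had 34 UMIs and 85 UMIs (0.379, 0.247 to 0.571). Adh1, an alcohol dehydrogenase that also oxidises retinol, had 109 CPM and 159 CPM (0.686, 0.594 to 0.792). Both transferase genes stood below the Aqp8-poor level in both libraries, Gstm1 at 0.119 of it in the Butyrate library and 0.298 in the RA library.

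Within the members, levels of some genes went with Aqp8. Over 437 Butyrate cells and 262 RA cells thinned to 2000 UMIs, Spearman's rho with Aqp8 was 0.40 and 0.43 for Lypd8, 0.33 and 0.39 for Car4, 0.43 and 0.30 for Saa1, and 0.35 and 0.32 for the ferritin gene Fth1. It was -0.26 and -0.43 for the translation factor gene Eef1a1, and -0.28 and -0.34 for the chaperone gene Hsp90ab1. Ribosomal protein genes made up most of the negative end. All 63 of them among the genes compared were below 0 in both libraries, as were 240 of all 821 genes, and they were 18 of the 20 lowest, led by Rps19 at -0.35 and -0.35. These values describe cells of the same library that share its depth and free RNA, among 821 genes compared, and Aqp8 also chose the cells.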
